A study of Mus musculus with 10 samples.

Results

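The genes described here make up the machinery of MHC class I antigen presentation in MC3T3-E1 cells. They are H2-K1, H2-D1, B2m, Tap1, Tap2, Tapbp, Psmb8, Psmb9, Psmb10 and Nlrc5, chosen by name as the rows whose Ensembl identifier maps to these symbols. All 10 were found among the 40620 genes of the count table, and all 10 passed the filter on low counts that left 20808 genes. MC3T3-E1 is an established mouse calvarial pre-osteoblast line, here a purchased subclone, so that all libraries come from one clone. RNA was sequenced at 5 stages with 2 replicates each, A and B. Subconfluent and confluent cells were kept in growth medium (αMEM with 10% serum), and the other libraries came from cells held for 24 h, 14 d or 21 d in differentiation medium, in which ascorbic acid at 50 µg/ml was added together with β-glycerophosphate at 10 mM. No culture was kept for 14 d or 21 d without the osteogenic additions, so culture time, cell density and medium changed together. Nothing in the labels says that the replicates were separate cultures, and the p-values then measure the spread between these libraries only, which may be technical.

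MHC class I molecules show peptides from the cell's own proteins to CD8+ T cells and natural killer cells. The peptides are cut by the proteasome, in which interferon-inducible catalytic subunits can replace the constitutive ones. The TAP transporter carries them into the endoplasmic reticulum, where tapasin and chaperones help to load them onto a heavy chain paired with β2-microglobulin. Almost every nucleated cell expresses the pathway. Its genes are classically driven through interferon, NF-κB and the transactivator NLRC5, which acts on a conserved promoter module.

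Of the 10 genes, 8 have a promoter entry in the RefSeq table (GRCm38.p6, 250 bases before to 50 bases after the start). The promoters of the heavy chains, of B2m, of Tap1 and of Psmb8 are shown, that of H2-K1 in the first of its 2 entries, because their transcripts followed the different courses described below. They lie at chr17:34000284-34000583 (minus strand) for H2-K1, chr17:35262844-35263143 (plus strand) for H2-D1, chr2:122147437-122147736 (plus strand) for B2m, chr17:34187306-34187605 (plus strand) for Tap1 and chr17:34197945-34198244 (plus strand) for Psmb8. Capitals mark matches on either strand to 5 motifs, namely the interferon-stimulated response element GAAANNGAAA, the palindrome TTCNNNGAA, the NF-κB consensus, the CCAAT box and TGACG, the core of the cyclic AMP element. On the opposite strand CCAAT reads ATTGG and TGACG reads CGTCA.
H2-K1: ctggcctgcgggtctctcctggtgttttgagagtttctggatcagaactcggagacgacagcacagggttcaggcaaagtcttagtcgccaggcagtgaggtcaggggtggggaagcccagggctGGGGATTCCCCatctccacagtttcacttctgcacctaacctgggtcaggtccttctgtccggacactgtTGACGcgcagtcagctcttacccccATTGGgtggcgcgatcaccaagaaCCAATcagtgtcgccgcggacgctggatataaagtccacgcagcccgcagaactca
H2-D1: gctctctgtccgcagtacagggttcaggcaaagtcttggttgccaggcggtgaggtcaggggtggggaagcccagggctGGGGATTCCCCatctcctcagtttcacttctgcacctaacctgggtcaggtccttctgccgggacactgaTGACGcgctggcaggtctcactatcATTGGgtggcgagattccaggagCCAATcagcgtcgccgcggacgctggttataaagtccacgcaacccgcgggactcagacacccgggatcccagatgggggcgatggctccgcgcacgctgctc
B2m: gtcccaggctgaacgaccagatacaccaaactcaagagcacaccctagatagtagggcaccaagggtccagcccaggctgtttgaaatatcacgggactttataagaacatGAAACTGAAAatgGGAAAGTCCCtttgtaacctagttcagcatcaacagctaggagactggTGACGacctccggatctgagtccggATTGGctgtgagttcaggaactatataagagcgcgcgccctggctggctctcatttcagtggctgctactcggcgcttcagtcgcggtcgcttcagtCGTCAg
Tap1: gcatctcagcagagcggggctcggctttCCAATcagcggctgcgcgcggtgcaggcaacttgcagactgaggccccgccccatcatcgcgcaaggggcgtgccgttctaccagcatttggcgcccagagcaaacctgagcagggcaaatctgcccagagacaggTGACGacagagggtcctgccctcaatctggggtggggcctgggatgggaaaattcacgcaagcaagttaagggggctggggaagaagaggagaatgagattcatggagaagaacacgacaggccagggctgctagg
Psmb8: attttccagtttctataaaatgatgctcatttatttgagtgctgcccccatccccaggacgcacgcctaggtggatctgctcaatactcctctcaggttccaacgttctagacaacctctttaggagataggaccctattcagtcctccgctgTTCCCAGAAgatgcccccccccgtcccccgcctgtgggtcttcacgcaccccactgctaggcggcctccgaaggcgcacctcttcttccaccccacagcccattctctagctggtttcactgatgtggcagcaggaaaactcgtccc

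H2-K1 and H2-D1 carried the same series of capitals, with overlapping NF-κB matches from -125 in H2-K1 and from -171 in H2-D1, followed by TGACG and a CCAAT box on each strand. Positions are counted from the RefSeq start, the last base before it being -1. The windows of H2-D1 and Psmb8 lie inside the GENCODE gene spans given below, so the annotations place these starts differently. The longest stretch identical between the promoters of H2-K1 and H2-D1 was 47 bases. B2m had the only GAAANNGAAA match among the 8 promoters, at -139, beside an NF-κB match at -126. Psmb8 had the only TTCNNNGAA match, at -97. Over all 32851 promoters of the table, GAAANNGAAA was found in 3.44%, TTCNNNGAA in 8.30%, the NF-κB consensus in 8.46%, CCAAT in 37.4% and TGACG in 20.8%. Among the 8 promoters, the NF-κB consensus was found in 3, CCAAT in 6 and TGACG in 5. The windows of Tap1 and Psmb9, which are read in opposite directions, share 275 bases. Their CCAAT and TGACG matches lie at the same sites and are counted for each gene. These matches describe the letters of the window only. An element spelled otherwise than the pattern searched would not be marked, so a missing match does not show that the element is absent.

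The pathway did not move as one. The heavy chains H2-K1 and H2-D1 rose about 2-fold by 21 d, and B2m rose slightly. Tapbp, Psmb8 and Psmb10 fell with prolonged culture and stayed low. Tap1, Tap2, Psmb9 and Nlrc5 were at their lowest at 14 d, and none of these 4 passed the test between 21 d and subconfluent cells.

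**Figure D1:**
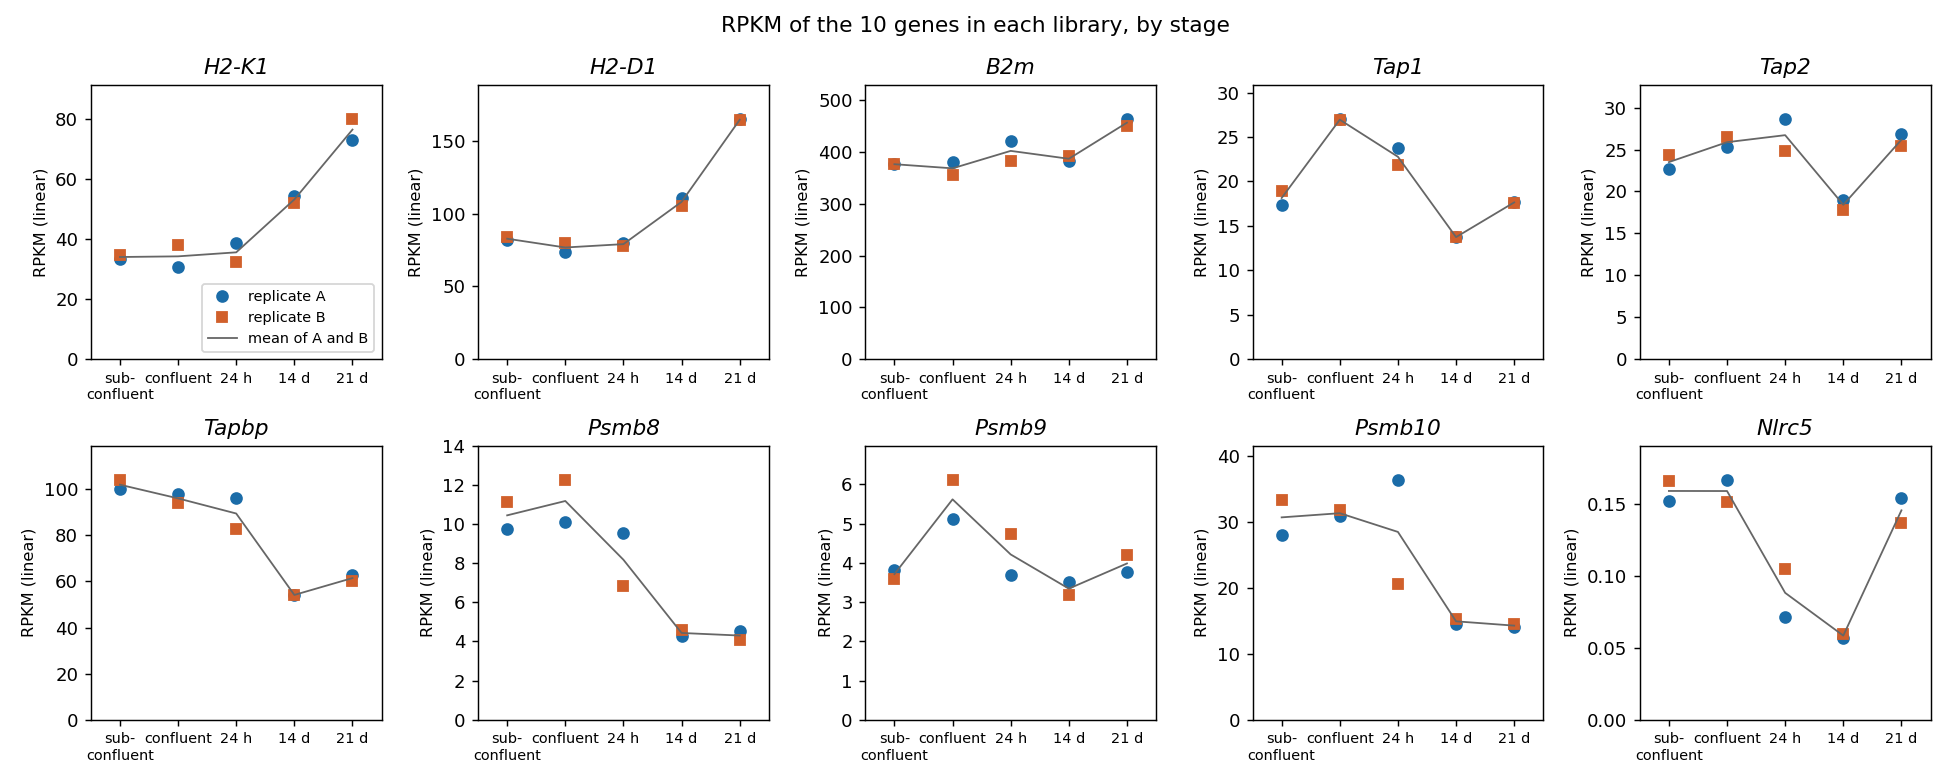
RPKM (linear axis from 0) of each of the 10 genes at the 5 stages. Circles are replicate A, squares are replicate B and the line joins their means. H2-K1 and H2-D1 climb to 76.5 and 165 RPKM at 21 d, Tapbp, Psmb8 and Psmb10 lie lower at 14 d and 21 d than before (the step from 24 h to 14 d did not pass for Psmb10, adjusted p = 0.073), and Tap1 peaks in confluent cells at 26.9 RPKM.

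Levels are given as RPKM, reads scaled to gene length and library size, and changes as log2 fold changes with their standard error from edgeR's quasi-likelihood test, which rescales the libraries by TMM. The adjusted p-values are corrected over all 20808 genes, and a gene passed at an adjusted p under 0.05. Each library held between 44736156 and 162939333 counts on genes, and every member except Nlrc5 had at least 326 counts in each. The 24 h replicates differed most from each other (SD of the log2 difference over genes 1.02, against 0.835 to 0.853 at the other stages). The 14 d and 21 d libraries carry another pair of index sequences than the earlier stages, so in comparisons across these sets library set and stage cannot be told apart. In bulk RNA, a larger share of expressing cells and more RNA per cell cannot be told apart either.

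When all 5 stages were tested together, 9 of the 10 genes passed the F test, where 48.9% of all genes did. The exception was Tap2 (adjusted p = 0.053). Without 14 d A or without 14 d B the number was 5, and without either 24 h library it was 10. Between 14 d and confluent cells, 2 genes rose and 6 fell, against a background of 16.9% of all genes higher and 15.3% lower. Of these, 2 also changed over 2-fold (background 13.0%), Psmb8 and Nlrc5, and the number was 1 without confluent A, 14 d A or 14 d B. Between 21 d and subconfluent cells, 3 rose and 3 fell (backgrounds 27.3% and 23.5%), and H2-K1, H2-D1 and Psmb8 changed over 2-fold (background 27.6%). The share of members that passed was above the background in the first comparison, and in the second it was close to it.

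Among neighbouring stages, the step from 24 h to 14 d moved as many members as 21 d against subconfluent cells. The other steps moved fewer. From subconfluent to confluent, 1 rose and 0 fell by edgeR (backgrounds 1.95% and 1.34%), and 0 changed over 2-fold (1.43%). From confluent to 24 h, 0 rose and 0 fell (3.59% and 1.57%), with 0 over 2-fold (2.13%). From 24 h to 14 d, 2 rose and 4 fell (9.08% and 8.21%), with 0 over 2-fold (5.98%). From 14 d to 21 d, 2 rose and 0 fell (3.77% and 5.95%), and 1, Nlrc5, changed over 2-fold (3.97%). The last 2 steps share the 14 d libraries, and each comparison above shares libraries with others.

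**Figure D2:**
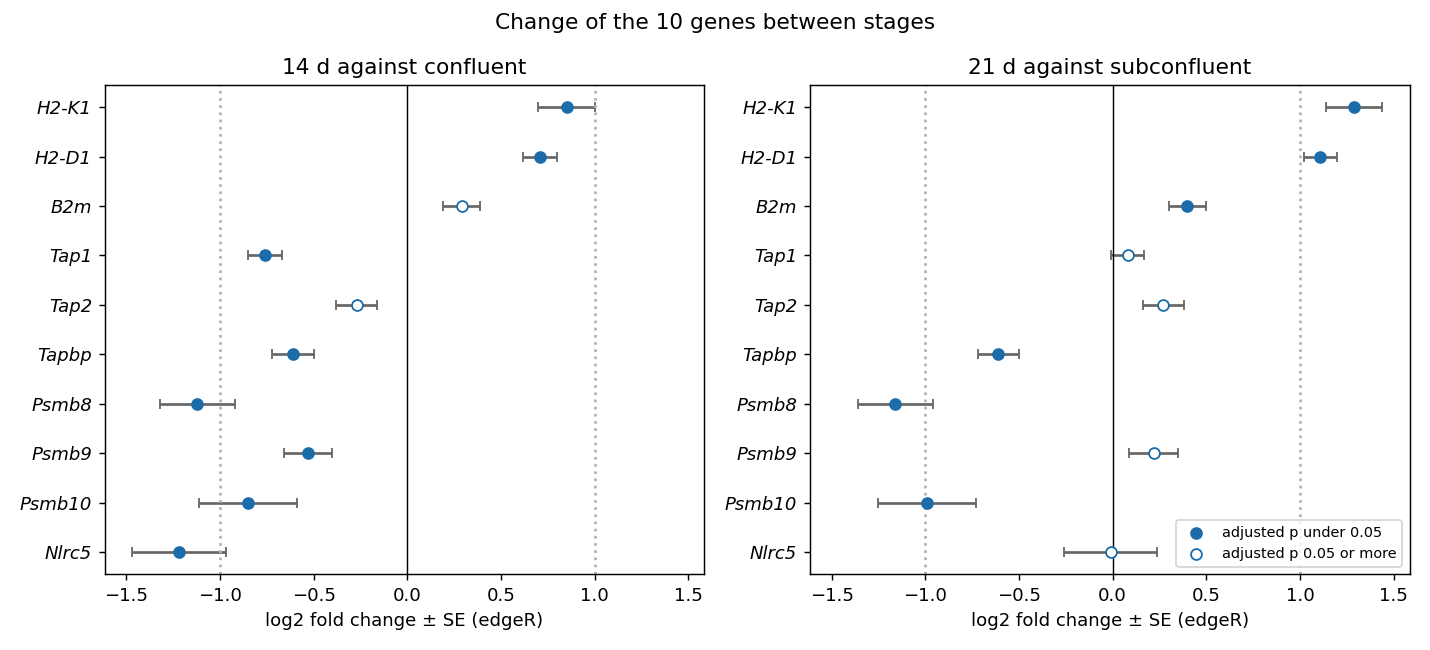
log2 fold change (points) with its standard error (bars) for the 10 genes, in 14 d against confluent cells and in 21 d against subconfluent cells. Filled points passed at an adjusted p under 0.05, open points did not, and dotted lines mark a 2-fold change. The heavy chains lie to the right in both panels and Tapbp, Psmb8 and Psmb10 to the left.

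The heavy chains carry the peptide-binding groove and are the polymorphic part of the complex. H2-K1 (ENSMUSG00000061232, chr17:33996017-34000347, minus strand) was measured at 33.5 and 34.6 RPKM in subconfluent cells, 30.6 and 37.9 in confluent cells, 38.8 and 32.4 at 24 h, 54.5 and 52.0 at 14 d, and 73.1 and 80.0 at 21 d (replicates A and B in each case). The first 3 stages overlapped, both 14 d libraries lay above all of them, and both 21 d libraries lay above 14 d. H2-K1 rose by 0.85 ± 0.15 log2 at 14 d against confluent cells (adjusted p = 0.0047) and by 1.29 ± 0.15 at 21 d against subconfluent cells (adjusted p = 0.00034). The step from 24 h to 14 d was 0.70 ± 0.15 (adjusted p = 0.02), and that from 14 d to 21 d was 0.45 ± 0.15 and did not pass (adjusted p = 0.11).

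H2-D1 (ENSMUSG00000073411, chr17:35262730-35267499, plus strand) followed the same course at a higher level. It stood at 81.6 and 84.0 RPKM in subconfluent cells, 73.5 and 80.1 in confluent cells, 80.1 and 78.1 at 24 h, 111 and 106 at 14 d, and 165 and 164 at 21 d. Each of the late stages was separated from the stage before it. H2-D1 rose by 0.58 ± 0.09 log2 from 24 h to 14 d (adjusted p = 0.0071) and by 0.53 ± 0.09 from 14 d to 21 d (adjusted p = 0.011), and the total against subconfluent cells was 1.11 ± 0.09 (adjusted p = 6.6e-05). Over the 10 libraries the log2 CPM of H2-D1 and H2-K1 had a Pearson correlation of 0.98, with library, depth and stage shared between the points.

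The rises of both heavy chains at 14 d against confluent cells and at 21 d against subconfluent cells passed under every alternative tried. The single steps were less firm. The step of H2-D1 from 14 d to 21 d did not pass when any one library of these stages was left out (adjusted p = 0.085 to 0.11 with 14 d A, 14 d B, 21 d A or 21 d B removed), although its size stayed between 0.51 and 0.57. The steps from 24 h to 14 d did not pass without 14 d A (adjusted p = 0.1 for H2-K1 and 0.06 for H2-D1) or without 14 d B (0.1 and 0.056), and that of H2-K1 did not pass without subconfluent A (0.066) or B (0.067). Sequence is shared within this gene family. Of the stretches of 51 bases, the read length, in annotated transcripts, 9.2% for H2-K1 and 12.2% for H2-D1 also occur in transcripts of other genes. How the counting treated such reads is not given in the sources used here.

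B2m (ENSMUSG00000060802, chr2:122147686-122153083, plus strand) encodes β2-microglobulin, the invariant light chain, and was the most abundant of the 10 genes at every stage. Its level was 376 and 377 RPKM in subconfluent cells, 381 and 356 in confluent cells, 422 and 383 at 24 h, 383 and 392 at 14 d, and 464 and 450 at 21 d. Only the 21 d libraries lay above all others. B2m rose by 0.40 ± 0.10 log2 at 21 d against subconfluent cells (adjusted p = 0.016), a call lost when subconfluent A (adjusted p = 0.11), subconfluent B (0.13), 21 d A (0.083) or 21 d B (0.067) was left out. At 14 d against confluent cells the change was 0.29 ± 0.10 and did not pass (adjusted p = 0.073).

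The light chain did not keep pace with the heavy chains. The RPKM of B2m divided by the summed RPKM of H2-K1 and H2-D1 was 3.22 ± 0.0613 (SD, n = 2) before confluence, 3.34 ± 0.456 at confluence and 3.51 ± 0.0590 at 24 h, then 2.40 ± 0.121 at 14 d and 1.90 ± 0.0738 at 21 d. The late libraries lay below all earlier ones. H2-K1 to H2-D1 moved much less, from 0.411 ± 0.000886 in subconfluent cells to 0.465 ± 0.0312 at 21 d. These ratios have 2 libraries a stage and were not tested.

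Tap1 and Tap2 encode the paired subunits of the TAP peptide transporter. Tap1 (ENSMUSG00000037321, chr17:34187553-34197225, plus strand) was measured at 17.4 and 18.9 RPKM in subconfluent cells, 27.0 and 26.9 in confluent cells, 23.7 and 21.8 at 24 h, 13.7 and 13.7 at 14 d, and 17.7 and 17.6 at 21 d. It was highest in both confluent libraries and lowest in both 14 d libraries. Tap1 was the only member that passed between subconfluent and confluent cells, where it rose by 0.55 ± 0.09 log2 (adjusted p = 0.028). It fell at 14 d by 0.76 ± 0.09 log2 against confluent cells (adjusted p = 0.0012), and at 21 d it differed from subconfluent cells by 0.08 ± 0.09 (adjusted p = 0.53).

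The fall of Tap1 at 14 d against confluent cells passed under every alternative. Its rise at confluence did not pass without any one library of the subconfluent, confluent, 14 d or 21 d stages. The adjusted p without subconfluent A was 0.25, without subconfluent B 0.17, without confluent A 0.11 and without confluent B 0.18. It was 0.078 without 14 d A, 0.08 without 14 d B, 0.075 without 21 d A and 0.074 without 21 d B, while the size of the rise stayed between 0.49 and 0.59. The sign of its change at 21 d depended on the scaling and is not read here.

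Tap2 (ENSMUSG00000024339, chr17:34203527-34216321, plus strand) dipped only at 14 d. It stood at 22.7 and 24.3 RPKM in subconfluent cells, 25.3 and 26.5 in confluent cells, 28.6 and 24.8 at 24 h, 19.0 and 17.8 at 14 d, and 26.9 and 25.4 at 21 d. Both 14 d libraries lay below all others. The fall from 24 h to 14 d by 0.42 ± 0.11 log2 passed (adjusted p = 0.043), but not when any one library outside the 24 h stage was left out (adjusted p = 0.066 to 0.21), and the return by 21 d did not (0.43 ± 0.11, adjusted p = 0.054). The ratio of Tap1 to Tap2 was 0.771 ± 0.00840 before confluence, 1.04 ± 0.0370 at confluence and 0.674 ± 0.0249 at 21 d (SD, n = 2). Of the 51-base stretches of Tap2, 11.5% occur in other genes, most of them in the antisense transcript Gm15821.

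Tapbp (ENSMUSG00000024308, chr17:33915899-33929292, plus strand) encodes tapasin, which bridges TAP and the empty class I molecule. Its level was 99.9 and 104 RPKM in subconfluent cells, 97.8 and 94.2 in confluent cells, 96.3 and 82.6 at 24 h, 54.1 and 54.2 at 14 d, and 62.7 and 60.3 at 21 d. All 4 late libraries lay below all 6 early ones. Tapbp fell by 0.61 ± 0.11 log2 at 14 d against confluent cells (adjusted p = 0.0063) and by 0.61 ± 0.11 at 21 d against subconfluent cells (adjusted p = 0.0033). The step from 24 h to 14 d was a fall by 0.60 ± 0.11 (adjusted p = 0.013).

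The fall at 21 d passed under every alternative tried. That at 14 d against confluent cells did not pass without 14 d A (adjusted p = 0.051), and the step from 24 h did not pass without 14 d A (0.093) or 14 d B (0.089). With the heavy chains higher and tapasin lower, the summed RPKM of H2-K1 and H2-D1 relative to Tapbp went from 1.15 ± 0.00875 in subconfluent cells through 1.29 ± 0.0718 at 24 h and 2.98 ± 0.105 at 14 d to 3.93 ± 0.180 at 21 d (SD, n = 2). Tapbp shares 20.2% of its 51-base stretches with the antisense gene Gm19412. It also overlaps Zbtb22 on the same strand by 149 exon bases, and whether the counting used strand is not given in the sources used here.

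Psmb8, Psmb9 and Psmb10 encode the catalytic subunits of the immunoproteasome. Psmb8 (LMP7, ENSMUSG00000024338, chr17:34197721-34201454, plus strand) was measured at 9.75 and 11.1 RPKM in subconfluent cells, a mean of 11.2 ± 1.52 (SD, n = 2) in confluent cells, 9.52 and 6.83 at 24 h, 4.26 and 4.61 at 14 d, and 4.52 and 4.09 at 21 d. The late libraries did not overlap the early ones. Psmb8 fell by 1.12 ± 0.20 log2 at 14 d against confluent cells (adjusted p = 0.0057) and by 1.16 ± 0.20 at 21 d against subconfluent cells (adjusted p = 0.0025). With any 1 library left out the change at 14 d ranged from -1.26 to -0.97, the smallest being that without confluent B, and the adjusted p reached 0.05 without 14 d A.

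The antisense gene Gm20496, which covers 498 exon bases of Psmb8 and holds 11.5% of its 51-base stretches, moved alongside it, from a mean of 16.5 RPKM in subconfluent cells to 7.21 at 21 d. Its part in the counts of Psmb8 was not tested.

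Psmb10 (MECL-1, ENSMUSG00000031897, chr8:105935735-105938444, minus strand) shared no such stretch with any other gene and took a similar course. It stood at 28.1 and 33.4 RPKM in subconfluent cells, 30.9 and 31.9 in confluent cells, 36.4 and 20.6 at 24 h, 14.5 and 15.4 at 14 d, and 14.1 and 14.5 at 21 d. The 24 h replicates were the highest and the lowest of the early libraries, and all late libraries lay below both. Psmb10 fell by 0.85 ± 0.26 log2 at 14 d against confluent cells (adjusted p = 0.044) and by 0.99 ± 0.26 at 21 d against subconfluent cells (adjusted p = 0.017). The 14 d call was lost without any one library outside the 24 h stage (adjusted p = 0.062 to 0.18), and the 21 d call without subconfluent B (0.086), 21 d A (0.081) or 21 d B (0.073).

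Psmb9 (LMP2, ENSMUSG00000096727, chr17:34181987-34187764, minus strand) did not follow the others. Its level was 3.82 and 3.60 RPKM in subconfluent cells, 5.12 and 6.11 in confluent cells, 3.69 and 4.74 at 24 h, 3.51 and 3.17 at 14 d, and 3.77 and 4.19 at 21 d. The confluent libraries were the highest, the 14 d libraries the lowest, and the 21 d values overlapped those of subconfluent cells. Psmb9 fell by 0.53 ± 0.13 log2 at 14 d against confluent cells (adjusted p = 0.021), a call lost without confluent B (adjusted p = 0.13), 14 d A (0.075) or 14 d B (0.13), and its difference between 21 d and subconfluent cells was 0.22 ± 0.13 (adjusted p = 0.22). Psmb9 and Tap1, whose promoters overlap, had a Pearson correlation of 0.72 over the 10 libraries, and their exons share 212 bases on opposite strands. Tap1 had 0.63 to 0.64 with Tap2, Tapbp, Psmb8 and Psmb10 and 0.33 with Nlrc5. With H2-K1, H2-D1 and B2m it had -0.53 to -0.37.

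Each immunosubunit replaces one constitutive subunit, Psmb5 for Psmb8, Psmb6 for Psmb9 and Psmb7 for Psmb10. The constitutive genes were far more abundant throughout, with means of 105, 91.2 and 195 RPKM in subconfluent cells. At 21 d against subconfluent cells Psmb7 fell by 1.26 ± 0.11 log2 (adjusted p = 8.2e-05) and Psmb6 by 0.74 ± 0.23 (adjusted p = 0.028), while Psmb5 changed by -0.47 ± 0.21 and did not pass (adjusted p = 0.1). Of the 51-base stretches of Psmb5, 53.2% occur in other genes.

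The balance within each pair differed. Psmb8 to Psmb5 was 0.0997 ± 0.00664 in subconfluent cells, 0.0517 ± 0.00325 at 14 d and 0.0617 ± 0.00397 at 21 d (SD, n = 2). Psmb9 to Psmb6 went the other way, from 0.0408 ± 0.00358 to 0.0566 ± 0.000676 and 0.0790 ± 0.00244. Psmb10 to Psmb7 stayed near its starting value, with 0.158 ± 0.0158, 0.157 ± 0.00445 and 0.191 ± 0.0102. Only for Psmb8 did both late stages lie below all early libraries, and these ratios were not tested.

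**Figure D3:**
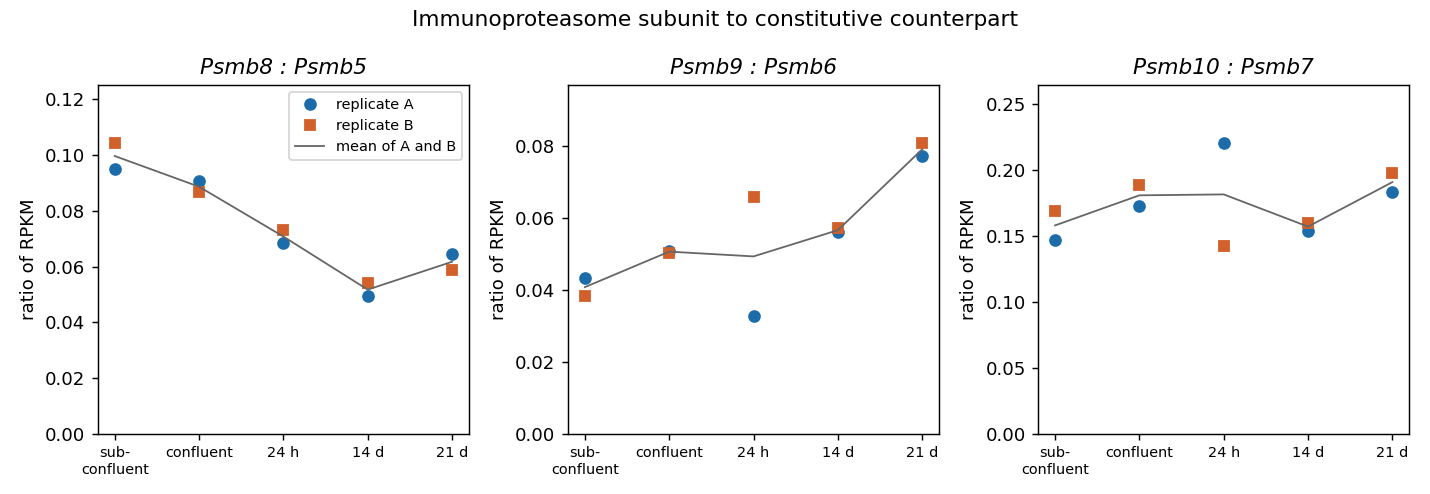
Ratio of the RPKM of each immunoproteasome subunit to that of its constitutive counterpart (linear axis from 0) at the 5 stages, with circles for replicate A, squares for replicate B and a line through the means. Psmb8 to Psmb5 declines from 0.0997 to 0.0617, Psmb9 to Psmb6 rises from 0.0408 to 0.0790, and Psmb10 to Psmb7 lies between 0.157 and 0.191 in the stage means.

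Nlrc5 (ENSMUSG00000074151, chr8:94434356-94527272, plus strand) encodes the transactivator of MHC class I genes and was the least abundant of the 10, with 15 to 124 counts per library. Its level was 0.152 and 0.166 RPKM in subconfluent cells, 0.167 and 0.151 in confluent cells, 0.0712 and 0.105 at 24 h, 0.0570 and 0.0598 at 14 d, and 0.154 and 0.137 at 21 d. The 24 h and 14 d libraries lay below all others, and 14 d below 24 h. Nlrc5 fell by 1.22 ± 0.25 log2 at 14 d against confluent cells (adjusted p = 0.0098), rose by 1.24 ± 0.25 from 14 d to 21 d (adjusted p = 0.024), and at 21 d differed from subconfluent cells by -0.01 ± 0.25 (adjusted p = 0.98).

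The fall was lost without confluent A (adjusted p = 0.052), 14 d A (0.071) or 14 d B (0.053). The rise was lost without 14 d A (0.16), 14 d B (0.13), 21 d A (0.15), 21 d B (0.097), confluent A (0.051) or confluent B (0.051). On log2(RPKM + 1), with a pseudocount above every level of the gene, limma gave changes of only -0.13 and 0.11, and on log2(RPKM + 0.1) -0.71 and 0.63. At 14 d, when Nlrc5 was at its lowest, the heavy chains were higher than in confluent cells. From 14 d to 21 d the mean levels of Nlrc5 and of both heavy chains rose, though the step of H2-K1 did not pass. Over the 10 libraries the Pearson correlation of Nlrc5 was -0.20 with H2-K1 and -0.08 with H2-D1. A link between these genes was not tested.

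The order of the levels changed between the ends of the series. In subconfluent cells it ran from B2m (377 RPKM) over Tapbp (102), H2-D1 (82.8), H2-K1 (34.0), Psmb10 (30.7), Tap2 (23.5), Tap1 (18.1), Psmb8 (10.4) and Psmb9 (3.71) to Nlrc5 (0.159). H2-K1 and Psmb10 lay within 1 SD of Psmb10 (3.77) of each other there. At 21 d Tapbp (61.5) and Psmb10 (14.3) had dropped below H2-K1 (76.5) and Tap1 (17.6), and Psmb8 (4.30) and Psmb9 (3.98) overlapped. The order rests on the deposited gene lengths, 2974 bases for Tap1 and 1262 for Psmb10. The GENCODE annotation gives these genes 5476 and 1705 exon bases. It also differs for Psmb8 (2144 deposited, 3381 annotated), Psmb9 (4296 and 3660), Tapbp (2258 and 3628), H2-K1 (2120 and 2938) and Tap2 (2688 and 3781). The order of all these genes, and of Tapbp against H2-D1, is therefore uncertain. B2m exceeded 98.6% of the genes in the RPKM table at 21 d, and Nlrc5 52.1%.

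The other class I heavy chain genes shared the direction of H2-K1 and H2-D1. Of 19 listed genes that have counts on record, 18 passed the filter, and at 21 d against subconfluent cells 14 rose, 9 of them over 2-fold, and 2 fell, with a median change of 1.06 log2 against 0.04 for all genes (shares of all genes 27.3% higher, 27.6% over 2-fold in either direction and 23.5% lower). At 14 d against confluent cells 7 rose and 1 fell, with a median of 0.77 against 0.03 (shares of all genes 16.9% and 15.3%). At 21 d against subconfluent cells H2-T23, which encodes the nonclassical Qa-1 molecule, rose by 1.66 ± 0.12 (adjusted p = 3.4e-05) from a mean of 11.9 to 34.6 RPKM. The heavy chain genes H2-Q7 and H2-Q10 rose by 1.20 ± 0.11 (adjusted p = 9.1e-05) and by 1.22 ± 0.14 (adjusted p = 0.00031). H2-Q2 rose by 1.08 ± 0.28 (adjusted p = 0.016) and H2-T3 by 1.18 ± 0.27 (adjusted p = 0.0082). Mr1, which presents vitamin B metabolites and shares no 51-base stretch with another gene, rose by 1.32 ± 0.26 (adjusted p = 0.0045). The genes that fell were Cd1d1 and Cd1d2, the lipid-presenting molecules, which share sequence with each other. H2-Q4, H2-Q6, H2-T10 and H2-T22 share between 34.3% and 52.9% of their stretches with other genes, H2-Q7 26.0%, H2-Q10 18.7%, H2-Q2 15.6% and H2-T23 14.0%, so their counts are uncertain. H2-M2 and H2-M10.1 had 0 counts in subconfluent cells and 10 and 14, and 41 and 56, at 21 d. Both are counted among the 9 genes over 2-fold, and no fold is given for them.

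The loading chaperones took another course. Calr, calreticulin, was measured at 424 and 432 RPKM in subconfluent cells, 362 and 349 in confluent cells, 304 and 289 at 24 h, 174 and 166 at 14 d, and 933 and 1041 at 21 d. It fell by 0.85 ± 0.11 log2 at 14 d against confluent cells (adjusted p = 0.0011) and then rose by 2.47 ± 0.11 by 21 d (adjusted p = 0.00016). Pdia3 (ERp57) and Canx (calnexin) also rose from 14 d to 21 d, by 1.22 ± 0.10 (adjusted p = 0.00061) and 0.90 ± 0.09 (adjusted p = 0.0014). Erap1, the peptide-trimming aminopeptidase, fell by 1.36 ± 0.13 at 21 d against subconfluent cells (adjusted p = 0.00013). Of the 6 loading and trimming genes, 3 rose and 1 fell in that comparison, with a median of 0.17 (shares of all genes 27.3% and 23.5%).

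The rest of the proteasome moved in the direction of Psmb8 and Psmb10. Of 11 other 20S core subunits, 9 fell and 0 rose at 21 d against subconfluent cells, with a median of -0.95 log2 (23.5% of all genes fell and 27.3% rose), and 6 fell and 0 rose at 14 d against confluent cells, with a median of -0.57 (15.3% and 16.9%). Psma2 showed a fall by 1.29 ± 0.16 (adjusted p = 0.00041) and Psmb2 by 1.14 ± 0.15 (adjusted p = 0.00053) in the first of these. Psma3 and Psma4 fell by 1.26 ± 0.17 (adjusted p = 0.0007) and 1.16 ± 0.15 (adjusted p = 0.00062). Among 5 genes for proteasome activators and the assembly factor, 4 fell and 0 rose at 21 d against subconfluent cells, beside the same shares of all genes. Psme2, a subunit of the interferon-inducible PA28 activator, fell by 1.28 ± 0.20 (adjusted p = 0.0014), and Pomp, which helps to assemble the core, by 1.03 ± 0.21 (adjusted p = 0.0046).

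**Figure D4:**
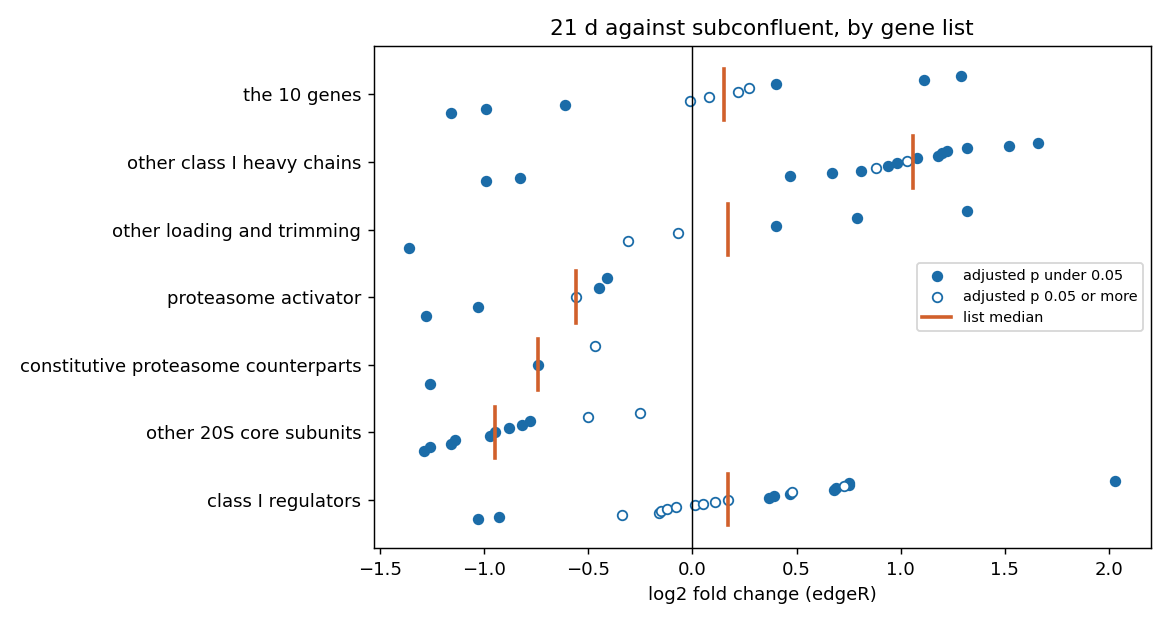
log2 fold change at 21 d against subconfluent cells for the 10 genes and for 6 further lists of the pathway, 1 point per gene and a vertical bar at the list median over the genes tested. Filled points passed at an adjusted p under 0.05, and genes with 0 counts in both libraries of a stage compared are left out of the points. The median of the other class I heavy chains is 1.06 and that of the other 20S core subunits is -0.95.

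Of 21 receptors, kinases and transcription factors that act upstream of class I genes, 8 rose and 2 fell at 21 d against subconfluent cells. At 14 d against confluent cells 2 rose and 4 fell. Of all genes, 27.3% rose and 23.5% fell in the first comparison, and 16.9% and 15.3% in the second. The counts were not tested against these shares. Irf1, a classical activator of Tap1 and Psmb9, stood at 13.8 and 13.8 RPKM in subconfluent cells, 11.8 and 11.1 in confluent cells, 7.96 and 7.23 at 24 h, 5.63 and 5.67 at 14 d, and 6.70 and 6.65 at 21 d. It fell by 0.80 ± 0.10 log2 at 14 d against confluent cells (adjusted p = 0.0011) and by 0.93 ± 0.10 at 21 d against subconfluent cells (adjusted p = 0.00019). Irf9, an interferon regulatory factor, rose by 2.03 ± 0.15 at 21 d (adjusted p = 3.6e-05), and its mean level went from 1.79 RPKM at 14 d to 8.03 at 21 d. Nfyc, a subunit of the CCAAT-binding factor, fell by 1.03 ± 0.13 at 21 d (adjusted p = 0.00048), Jak2, the interferon receptor kinase, rose by 1.24 ± 0.15 at 14 d (adjusted p = 0.00097), and Rela and Nfkb1 changed by 0.05 ± 0.07 and -0.34 ± 0.13 at 21 d and did not pass (adjusted p = 0.61 and 0.064). None of 10 interferon genes had enough counts to be tested, and their summed level was at most 1.98 RPKM, in a 24 h library.

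Markers of other cells were checked because leukocytes carry abundant class I transcripts. Ptprc and Cd3e, which define leukocytes and T cells, were listed at 0 in all 10 libraries, and the summed RPKM of the 14 leukocyte markers without Tyrobp was 20.9 to 22.6 in subconfluent cells and 28.4 to 30.0 at 21 d. Of the 14 markers 8 were tested. At 21 d against subconfluent cells 2 rose and 0 fell (27.3% and 23.5% of all genes), with a median of 0.58 log2. They were Fcer1g, by 1.57 ± 0.33 (adjusted p = 0.0058) from a mean of 0.396 to 1.06 RPKM, and Lyz2, by 0.59 ± 0.16 (adjusted p = 0.017) from 10.8 to 14.9 RPKM. Tyrobp itself reached 179 RPKM in confluent B, 214 in 14 d B and 256 in 21 d A and was at most 0.842 in the other libraries. In these stages the H2-D1 values of the replicates with and without Tyrobp were 80.1 and 73.5, 106 and 111, and 165 and 164 RPKM. Ciita, the class II transactivator, had stage means of at most 0.0313 RPKM. Of 10 class II genes 5 were tested, and at 21 d against subconfluent cells 2 rose and 0 fell, beside the same shares of all genes. Cd74, the invariant chain, rose by 1.99 ± 0.47 (adjusted p = 0.0098) from 0.816 to 3.06 RPKM, and H2-DMb1, part of the class II peptide exchange factor, by 0.77 ± 0.16 (adjusted p = 0.0055) from 45.9 to 72.3 RPKM. The endothelial marker Tek had 1 count in each subconfluent library and 9 and 15 at 21 d, and the adipocyte marker Fabp4 had 1 in each and 9 and 10. Of 7 osteoblast markers, 7 rose at 14 d against confluent cells (16.9% of all genes), with a median of 2.43 log2. At 21 d against subconfluent cells 6 rose (27.3% of all genes), with a median of 2.41 log2. Sp7, Alpl, Ibsp, Bglap and Dmp1 changed over 2-fold in both comparisons (13.0% and 27.6% of all genes). The part of these markers in the class I values was not tested.

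The genes most like the members as a set were sought by the Pearson correlation, over the 10 libraries, of log2 CPM with the mean of the standardized members. They were Twf2 (0.928), Serpinb6c (0.918), Hibch (0.917), Atf4 (0.915), Tars2 (0.915), Txndc12 (0.909), Unc119 (0.903) and Gm26445 (0.901). Because the members ran in opposite directions, this mean describes no single one of them. For H2-D1 alone, an anchor chosen after its values were seen, the 8 closest genes were H2-Q7 (0.997), Gm8909 (0.991), Gm9574 (0.990), H2-Q10 (0.989), Gm7030 (0.989), Ccni (0.988), P4hb (0.985) and Xbp1 (0.984). H2-Q7 and H2-Q10 share 13.8% of their 51-base stretches with each other. Of the stretches of H2-D1, 12.2% occur in other genes, and the part of shared reads in these correlations was not tested. Among the members, Tapbp, Psmb8 and Psmb10 were correlated with each other at 0.95 to 0.96, and with H2-K1 at -0.84, -0.86 and -0.79. The points share library and stage, and no test was made.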

How the data were processed

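RNA of 10 libraries was sequenced as 51 bp paired-end reads. The deposited counts are raw reads per gene, and the deposited RPKM values are those counts scaled by the authors to gene length and reads. The submitters' processing notes name FastQC, TopHat2 2.0.9, R 3.0.1 and mm10. The counting tool, annotation and strand setting are not given in the sources used here. Merged lanes were used. Identifiers were matched to GENCODE symbols on GRCm38 (39547 of 40620).

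Counts were filtered with filterByExpr, normalized by TMM and fitted with edgeR 4.0.16 (R 4.3.3, quasi-likelihood, 5 groups, no covariate), adjusted by Benjamini-Hochberg over 20808 genes. The script was tested on simulated data. Library totals are the depth behind each value, and low-count genes such as Nlrc5 are the least precise. Alternatives used DESeq2 1.42.0, limma 3.58.1 on log2(RPKM + 1) or log2(RPKM + 0.1), other scalings, filters and samples. The members and lists were chosen with earlier results of these data known. The rule named all members, genes of other lists called over 2-fold at 14 d against confluent or 21 d against subconfluent cells or abundant (several of these appear here only in counts), the proteasome counterparts, and the 8 genes most like the members. Some genes named from these lists fall outside that rule and were chosen after their values were seen. Values of some genes on these lists are not reported here.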

Additional observations from a re-analysis of the deposited data

How the results depend on the processing

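Of 574 alternative values for changes of the members, 474 kept direction and side of the threshold, 78 lost the call, 16 gained one and 6 changed sign. For Tap1 at 21 d against subconfluent cells, the sign changed with library size alone (-0.082) and with limma on log2(RPKM + 1) (-0.037) or log2(RPKM + 0.1) (-0.038), and leaving out 1 library gave -0.001 to 0.10. For Nlrc5 in that comparison, leaving out 1 library gave -0.10 to 0.069, with the sign changed without subconfluent B (0.008) or without 21 d B (0.069). The changes of Nlrc5 shrank from -1.22 to -0.131 at 14 d against confluent cells and from 1.24 to 0.114 from 14 d to 21 d with limma on log2(RPKM + 1), where the pseudocount exceeds its level. Library size alone moved the median of all genes to -0.20 at 14 d against confluent cells and to -0.12 at 21 d against subconfluent cells.

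Without a fold threshold the members called were 1 from subconfluent to confluent, 6 from 24 h to 14 d, 2 from 14 d to 21 d, 8 at 14 d against confluent cells and 6 at 21 d against subconfluent cells. The 1 call from 14 d to 21 d became 0 with a replicate block, with limma at either pseudocount, and at an adjusted p under 0.01. At that stricter threshold the F test passed 5 members in place of 9. Leaving out 1 library gave 0 to 2 calls from 24 h to 14 d (2 without 24 h B), 0 to 1 from 14 d to 21 d (0 without confluent A or B, 14 d A or B, or 21 d A or B), 1 to 2 at 14 d against confluent cells (1 without confluent A, 14 d A or 14 d B), 3 to 4 at 21 d against subconfluent cells, and 5 to 10 in the F test (5 without 14 d A or 14 d B). The labels do not say whether the replicate letters pair the libraries. The correlations of A minus B between stages ran from -0.184 to 0.1, which cannot settle it. With 2 libraries a stage, a left-out library leaves 1 that is assumed to vary like the others. Ratios from raw counts differed from those from RPKM by gene length alone. With only the 2 groups compared, the 14 d against 24 h changes of H2-K1 (adjusted p = 0.18), H2-D1 (0.19), Tap1 (0.14), Tap2 (0.25), Tapbp (0.19) and Psmb8 (0.21) did not pass.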
